A study of Mus musculus with 27 samples.

Results

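The genes described here are 10 genes of the oxygen response and of glycolysis, followed through fetal brain development in 3 mouse strains. They are Vegfa, Egln3, Ankrd37, Bnip3, Pdk1, Hk2, Pfkl, Aldoa, Pgk1 and Ldha. The members were taken by symbol from a table of read counts per gene, by a rule that uses no measured value, though the symbols themselves were chosen with earlier results of these data known. The 10 symbols matched 11 of 55416 gene rows, because Aldoa has 2 rows, and the values below are those of the more abundant Aldoa row unless stated.

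The libraries came from whole brains of female fetuses, each from 1 of 3 inbred strains, AKR/J, C57BL/6J and B6.Cg-Cav1tm1Mls/J, called Cav1-null. Cav1-null mice carry a germline null allele of Cav1, the gene of the caveolar coat protein caveolin-1, on a congenic C57BL/6J background, and the allele is present in every cell type of the fetus. The dams were approximately 8 weeks old, no treatment is named for any group, and gestational days are counted from the vaginal plug as day 1. Each strain was sampled on d12, d15 and d17 with 3 libraries a day, which gave 9 groups and 27 poly(A) RNA-seq libraries. The change from d12 to d15 is called the early phase and that from d15 to d17 the late phase. The comparisons asked how the genes changed in each phase within a strain, how the strains differed on each day, and whether a phase's change differed between strains. The labels give separate samples but not the litters they came from, so the p-values measure the spread between these samples.

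When oxygen is scarce, the prolyl hydroxylases stop marking the alpha subunits of the hypoxia-inducible factors (HIFs) for destruction, and the stabilised HIFs bind the core motif ACGTG or GCGTG near their target genes. Those targets include the vessel growth factor Vegfa, the hydroxylase Egln3 itself, the mitophagy receptor Bnip3, and enzymes and carriers that turn glucose into lactate and hold pyruvate back from the mitochondria. The developing brain grows by proliferation of progenitors that use glycolysis heavily, and its vessels grow in from the surrounding plexus towards sources of Vegfa.

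Depth ranged from 26363697 to 39759702 reads on genes per library (median 29700746). Cav1 itself was at 0 to 0.503 CPM in the Cav1-null libraries, against 9.42 to 33.7 CPM for AKR/J and 10.5 to 41.1 CPM for C57BL/6J, as the labels state. CPM values are library-size scaled counts with TMM factors over the 27 libraries. All 8 brain markers, among them Sox2, Nes, Dcx and Map2, were present in each group. The AKR/J d12 libraries stood apart. Erythroid transcripts (14 genes, mainly globins) summed to 101830, 34389 and 201800 CPM in replicates 1, 2 and 3 there and to at most 18215 CPM in any other library, and the brain markers summed to 2136 to 2403 CPM there and to at least 3458 CPM elsewhere. Their replicate 1 also held 782 CPM of trophoblast and decidua transcripts and 2026 CPM of yolk sac transcripts. C57BL/6J d17 replicate 2 had a brain marker sum of 3876 CPM against 5131 and 6607 CPM in the other C57BL/6J d17 libraries. C57BL/6J d15 replicate 1 held 5659 CPM of connective tissue transcripts, against 447 and 665 CPM in the other libraries of that group. AKR/J d15 replicate 2 and C57BL/6J d17 replicate 1 also had high connective tissue sums for their groups, 1462 CPM against 193 and 197 CPM and 1212 CPM against 101 and 192 CPM. Cav1-null d12 replicate 3 had 1051 CPM of proliferation transcripts against 2011 and 2152 CPM in its group, and 1218 CPM of connective tissue transcripts against 243 and 337 CPM. The brains were taken whole, so fewer cells of a type and less RNA per cell cannot be told apart in any value below.

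The bases upstream of the start sites are shown for Bnip3, Ldha and Ankrd37, the members with the most matches to the HIF core motif, and for Pgk1, a textbook HIF target. The motif was searched as ACGTG or GCGTG on both strands in the 250 bases before each listed RefSeq start (table of build GRCm38.p6, printed at GRCm39 coordinates up to the first annotated exon). Of 32851 such windows of all genes 38.6% held at least 1 match and 16.7% held 2 or more. Among the members 12 of 15 windows held a match, and 6 windows held 2 or more. Each of the 10 genes had at least 1 window with a match, but some have more than 1 window and the share of all genes was not computed. The first listed windows of Vegfa and Aldoa held 0 matches. The matches of Vegfa, Aldoa and Pfkl lay in windows with 218 to 250 of 250 bases in annotated exons. Overlapping hits on the 2 strands, as in CACGTG, were counted separately. Capitals mark the matches below, each run 5′ to 3′ on the gene's strand.
Pgk1, chrX:105230456-105230705, plus strand, 2 matches: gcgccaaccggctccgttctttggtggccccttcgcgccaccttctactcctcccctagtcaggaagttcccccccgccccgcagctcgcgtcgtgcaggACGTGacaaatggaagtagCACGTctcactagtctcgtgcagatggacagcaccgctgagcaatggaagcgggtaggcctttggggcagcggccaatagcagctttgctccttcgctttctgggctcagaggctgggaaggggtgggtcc
Ldha, chr7:46494978-46495131, plus strand: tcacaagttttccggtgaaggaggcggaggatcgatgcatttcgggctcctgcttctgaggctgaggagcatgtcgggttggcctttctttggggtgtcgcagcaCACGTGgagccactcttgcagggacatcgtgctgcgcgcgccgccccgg
Bnip3, chr7:138511254-138511485, minus strand, 5 matches: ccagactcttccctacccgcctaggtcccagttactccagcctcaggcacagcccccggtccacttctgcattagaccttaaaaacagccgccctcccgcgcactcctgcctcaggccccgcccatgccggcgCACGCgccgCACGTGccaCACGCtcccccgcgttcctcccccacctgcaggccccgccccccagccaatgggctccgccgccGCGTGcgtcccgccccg
Ankrd37, chr8:46452912-46453137, minus strand: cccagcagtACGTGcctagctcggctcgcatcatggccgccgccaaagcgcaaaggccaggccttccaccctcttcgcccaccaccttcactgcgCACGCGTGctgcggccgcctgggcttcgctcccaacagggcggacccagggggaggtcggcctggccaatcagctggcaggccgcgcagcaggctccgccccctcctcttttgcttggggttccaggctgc
A match is a description of the letters and not a binding site. The Ldha and Ankrd37 windows hold further matches inside the exon bases that are not printed, 5 in all for Ldha and 4 for Ankrd37, and the Pgk1 matches start 150 and 131 bases before its start.

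Per length of transcript, lactate dehydrogenase Ldha was the most abundant member at 129.9 CPM per kb over the 27 libraries, followed by Aldoa at 99.4, Pgk1 at 63.8 and Vegfa at 41.2 CPM per kb. Pfkl stood at 18.8, Pdk1 at 8.25, Bnip3 at 5.82, Ankrd37 at 5.62 and Egln3 at 3.24 CPM per kb, and hexokinase Hk2 was the lowest at 1.25 CPM per kb. Between its highest and its lowest group mean Hk2 had the widest range, 9.46-fold from C57BL/6J d12 to AKR/J d17, while the other 9 members ranged from 1.95-fold (Vegfa) to 2.57-fold (Egln3). Neighbours in the order of the 9 group means mostly overlapped, since of 8 neighbouring pairs per gene none was separated for Vegfa, Egln3, Ankrd37, Pfkl and Ldha, 1 for Bnip3, Aldoa and Pgk1, and 2 for Pdk1 and Hk2.

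**Figure D1:**
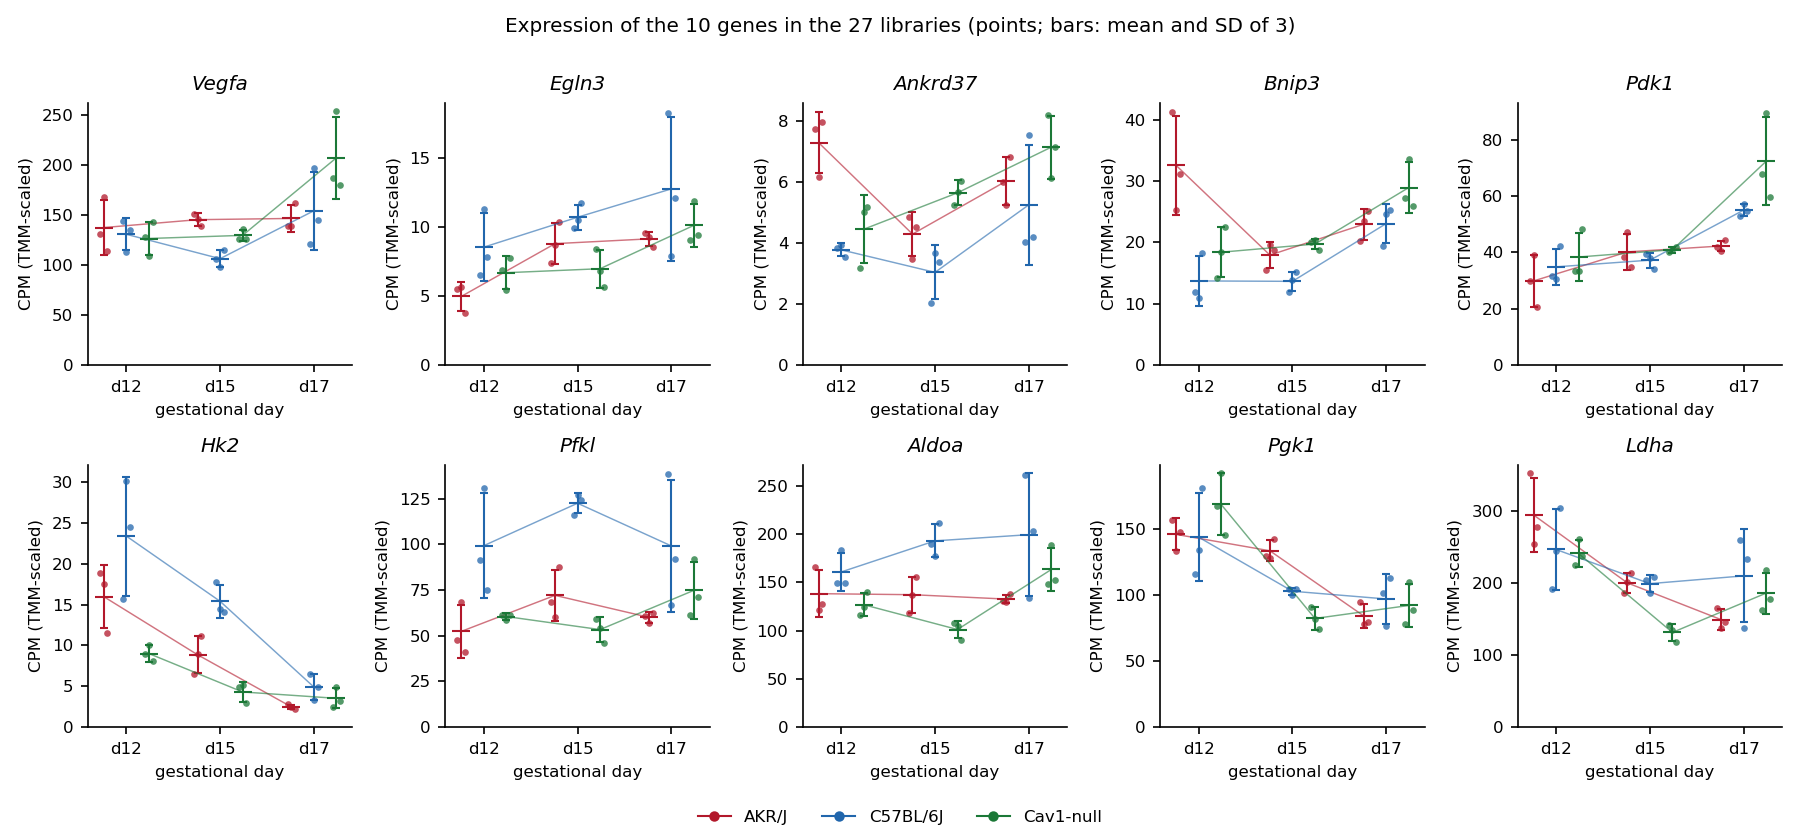
Level of each of the 10 genes (CPM, TMM-scaled, each panel with its own axis from 0) in the 27 libraries by strain and gestational day; points are libraries, bars the mean and SD of 3, and lines join the means. The Hk2 mean falls with day in each strain, Vegfa and Pdk1 are highest in Cav1-null on d17, and Bnip3 and Ankrd37 are highest in AKR/J on d12.

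All adjusted p-values below are those of the quasi-likelihood test of edgeR, adjusted by Benjamini-Hochberg over all genes tested in the comparison, and a gene was called at an adjusted p under 0.05. Differences are log2 fold changes ± SE. The shares of all genes called are those of the full fits, so counts from fits without a library stand without such a share. In the early phase the members fell or did not pass. AKR/J had 2 of 10 called, Bnip3 and Hk2, both lower, while 28.9% of all genes tested were called. Leaving out 1 library moved that count to 0 without AKR/J d12 replicate 1, d15 replicate 1 or d15 replicate 3, to 1 without d15 replicate 2 and to 5 without d12 replicate 2, and with library sizes in place of TMM 1 gene was called and it was higher. In C57BL/6J 0 of 10 were called by edgeR (background 14.9%), although 3 had an unadjusted p under 0.05 (Vegfa, Hk2 and Pgk1) and DESeq2 called 1. That count became 2 without C57BL/6J d12 replicate 2 and 1 without d12 replicate 3. Cav1-null had 3 called, Hk2, Pgk1 and Ldha, all lower, against 23.4% of all genes, and 3 or 4 were called whichever library was left out. The median of the 10 log2 fold changes was -0.105 for AKR/J, -0.19 for C57BL/6J and -0.05 for Cav1-null, beside all-gene medians of 0.02, -0.04 and -0.0094.

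Late in Cav1-null brains 7 of 10 members rose (Vegfa, Egln3, Bnip3, Pdk1, Pfkl, Aldoa and Ldha) and none fell, while 27.3% of all genes were called in either direction, and the members' median was 0.55 against -0.0037 for all genes. In AKR/J 3 members were called, Hk2, Pgk1 and Ldha, all lower, with 22.1% of all genes called and medians of 0.02 and -0.0063. In C57BL/6J Bnip3 and Pdk1 rose and Hk2 fell, with 13% of all genes called and medians of 0.20 and 0.03. The Cav1-null count stayed at 6 or 7 and the AKR/J count at 2 to 4 with any 1 library left out. The C57BL/6J count went to 0 without d15 replicate 1, d15 replicate 2 or d17 replicate 3, to 1 without d15 replicate 3 and to 5 without d17 replicate 1. In a single model of the 27 libraries the Cav1-null count was 3 and that of C57BL/6J was 5.

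Cav1-null and C57BL/6J differed in 9 of 10 on d15, Vegfa, Ankrd37 and Bnip3 higher and Egln3, Hk2, Pfkl, Aldoa, Pgk1 and Ldha lower in Cav1-null, but 58.6% of all genes were called in that comparison. The median was -0.42 for the members and 0.03 for all genes, and 9 were called whichever library was left out, C57BL/6J d15 replicate 1 with its connective tissue reads included. In a single model of the 27 libraries the count was 5. With library sizes in place of TMM the calls were 4 higher and 4 lower, beside 3 and 6 with TMM. On d12 and d17 edgeR called 0 members between these strains, with 0% and 0.0491% of all genes called. Unadjusted p under 0.05 was reached by 2 members on d12 (Hk2 and Pfkl) and 1 on d17 (Pdk1), and DESeq2 called 2 and 0. The d12 count became 2 without C57BL/6J d12 replicate 3, and the d17 count became 2 without C57BL/6J d17 replicate 2.

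AKR/J and C57BL/6J differed in 2 members on d12, Ankrd37 and Bnip3, both higher in AKR/J (28.6% of all genes called), and in 6 on d15, Vegfa, Bnip3 and Pgk1 higher and Hk2, Pfkl and Aldoa lower in AKR/J (41.1%). On d17 edgeR called 0 (0.742%), 4 had an unadjusted p under 0.05 and DESeq2 called 1. The d12 count was 0 without AKR/J d12 replicate 1, C57BL/6J d12 replicate 1 or C57BL/6J d12 replicate 2 and 1 without AKR/J d12 replicate 3. In the d12 fit with replicate number as a block, Pfkl was called as well, lower in AKR/J, at -0.80 ± 0.16 (adjusted p = 0.00658). The d15 count stayed at 4 or 5, and the d17 count became 5 without C57BL/6J d17 replicate 2. With library sizes in place of TMM the d15 calls were 3 higher and 1 lower, beside 3 and 3 with TMM.

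AKR/J and Cav1-null differed in 2 members on d12, Bnip3 and Hk2, both higher in AKR/J (19.6% of all genes called). On d15 the 4 called were Hk2, Aldoa, Pgk1 and Ldha, all higher in AKR/J (19.3%), and on d17 the 4 called were Vegfa, Pdk1, Aldoa and Ldha, all lower in AKR/J (12.4%). The members' median turned from 0.35 on d15 to -0.34 on d17, beside 0.0091 and -0.0028 for all genes. The d12 count was 0 without AKR/J d12 replicate 1, Cav1-null d12 replicate 1 or Cav1-null d12 replicate 2, and 1 without AKR/J d12 replicate 3 or Cav1-null d12 replicate 3. The d15 count was 2 without AKR/J d15 replicate 3 or without any of the 3 Cav1-null d15 libraries. The d17 count was 1 without AKR/J d17 replicate 2 and 2 without AKR/J d17 replicate 3, Cav1-null d17 replicate 2 or Cav1-null d17 replicate 3. Comparisons that share a group share its libraries, so their values are given side by side and are not independent.

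The difference between strains in a phase's change was tested as an interaction of strain and day, and its values are the change in AKR/J minus that in Cav1-null. Between AKR/J and Cav1-null, 3 members differed in the early phase, Ankrd37, Bnip3 and Pgk1 (14.7% of all genes called), and 3 in the late phase, Aldoa, Pgk1 and Ldha (2.13%). In the late phase 7 members had an unadjusted p under 0.05, and DESeq2 called 7, the model of all 27 libraries 0 and the replicate block 1. The adjusted p of Vegfa, Hk2, Pfkl and Pdk1 was 0.0504, 0.0525, 0.0583 and 0.062. The early count was 1 without AKR/J d12 replicate 1 or 3, AKR/J d15 replicate 1 or 3, Cav1-null d12 replicate 1 or 2, or any of the Cav1-null d15 libraries, and the gene still called in each case was Pgk1. With library sizes in place of TMM the early calls were 2 higher in AKR/J and 0 lower, beside 1 and 2 with TMM. The late count was 0 without AKR/J d17 replicate 2 or 3 or Cav1-null d15 replicate 2 or 3, 1 without Cav1-null d17 replicate 2 or 3, and 5 without AKR/J d15 replicate 1 or Cav1-null d17 replicate 1.

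Interactions with C57BL/6J called 0 members by edgeR in all 4 tests. In the early phase AKR/J against C57BL/6J had 0.0711% of all genes called and 1 member with an unadjusted p under 0.05, and Cav1-null against C57BL/6J had 0.00472% and 3 members. In the late phase these were 0.00468% and 2 members for AKR/J, and 0.252% and 3 members for Cav1-null, where DESeq2 called 1 member and the other 3 tests by DESeq2 called 0. Without AKR/J d12 replicate 2 the early count of AKR/J became 1, without C57BL/6J d12 replicate 2 the early count of Cav1-null became 2, and without C57BL/6J d17 replicate 1 the late count of Cav1-null became 3. The rise of 7 members in Cav1-null in the late phase was therefore not shown to differ from the change in C57BL/6J.

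**Figure D2:**
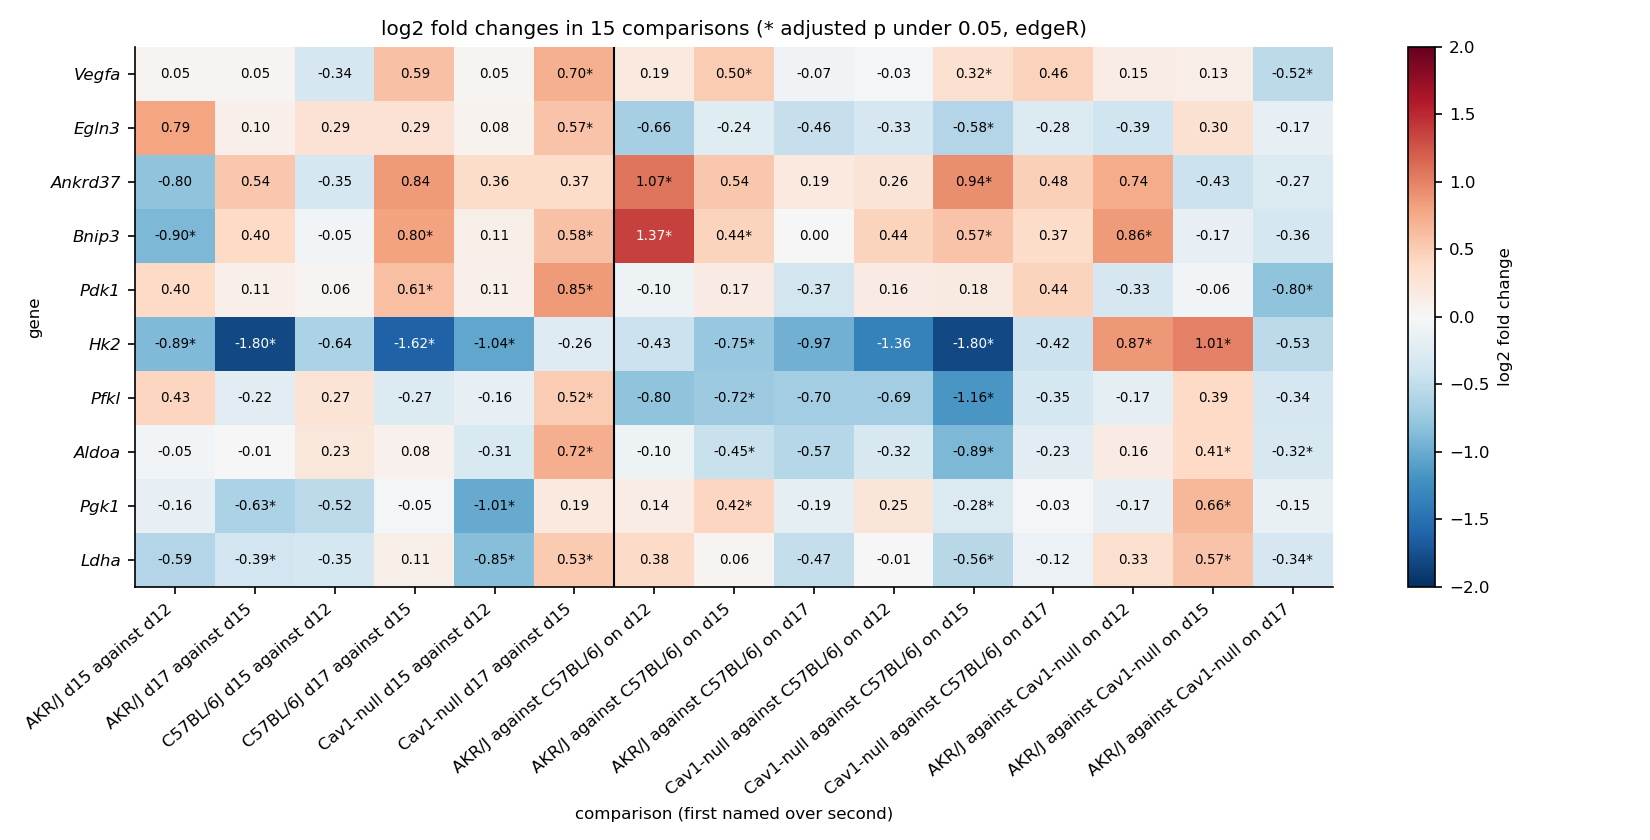
Log2 fold change of each of the 10 genes in the 6 day comparisons and 9 strain comparisons (colour and printed value), with a mark where edgeR's adjusted p was under 0.05. The late phase of Cav1-null holds 7 marked rises, and the d15 comparison of Cav1-null with C57BL/6J holds 9 marks of both signs.

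Vegfa (ENSMUSG00000023951, chr17:46327919-46343309, minus strand, GRCm39 as for all positions here) encodes the growth factor that draws vessels into the neural tube. Vegfa in AKR/J stood at 131, 168 and 114 CPM on d12, 151, 147 and 139 CPM on d15 and 139, 139 and 162 CPM on d17 in replicates 1, 2 and 3, the order used throughout. C57BL/6J brains held 144, 113 and 135 CPM, then 107, 97.7 and 115 CPM, then 121, 197 and 145 CPM. Cav1-null brains held 128, 109 and 143 CPM, then 127, 137 and 126 CPM, then 187, 255 and 181 CPM. The Cav1-null d17 libraries lay above all d12 and d15 libraries of any strain, and within d17 their range overlapped that of C57BL/6J through 1 high C57BL/6J library, replicate 2. As mean ± SD of 3 libraries Cav1-null went from 129.8 ± 5.84 to 207 ± 41 CPM in the late phase, a rise of 0.70 ± 0.11 (adjusted p = 0.000346), called with any library left out. On d17 AKR/J was lower than Cav1-null by 0.52 ± 0.12 (adjusted p = 0.0142), a call lost without AKR/J d17 replicate 2. On d15, when C57BL/6J was at its lowest with 106 ± 8.71 CPM, AKR/J was higher by 0.50 ± 0.09 (adjusted p = 0.00294) and Cav1-null by 0.32 ± 0.07 (adjusted p = 0.00193), with no overlap between the groups. Both d15 calls were lost in the single model of 27 libraries.

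Egln3 (ENSMUSG00000035105, chr12:54225767-54250673, minus strand), the prolyl hydroxylase that HIFs induce and that marks them for destruction, was low. Egln3 counts in AKR/J gave 5.49, 5.64 and 3.73 CPM on d12, 7.36, 8.64 and 10.3 CPM on d15 and 9.52, 9.28 and 8.56 CPM on d17. For C57BL/6J the values were 6.503, 11.3 and 7.797 CPM, 9.88, 10.5 and 11.7 CPM and 18.2, 7.89 and 12.1 CPM. For Cav1-null they were 6.89, 5.4 and 7.72 CPM, 8.41, 6.83 and 5.64 CPM and 9.05, 11.9 and 9.37 CPM. The AKR/J d12 libraries were all below the later AKR/J libraries, and the C57BL/6J d17 libraries spread over more than the range of any other group. The early difference in AKR/J, 0.79 ± 0.28 (adjusted p = 0.0686), did not pass. Cav1-null rose in the late phase by 0.57 ± 0.16 (adjusted p = 0.0195), a call lost without Cav1-null d15 replicate 2, d15 replicate 3 or d17 replicate 2, and was lower than C57BL/6J on d15 by 0.58 ± 0.16 (adjusted p = 0.0119).

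Ankrd37 (ENSMUSG00000050914, chr8:46449939-46458744, minus strand) encodes a small ankyrin repeat protein and is a HIF target in many tissues. The gene overlaps Lrp2bp on the other strand, and whether the counting used strand is not given in the sources used here, so reads of the 2 genes may be mixed. AKR/J levels of Ankrd37 were 7.76, 6.15 and 7.97 CPM on d12, 4.87, 3.49 and 4.52 CPM on d15 and 6.02, 5.26 and 6.83 CPM on d17. C57BL/6J levels were 3.84, 3.95 and 3.54 CPM, 2.03, 3.69 and 3.395 CPM and 4.03, 7.53 and 4.21 CPM on the same days. In Cav1-null the levels were 3.17, 5.02 and 5.17 CPM, 5.23, 5.67 and 6.05 CPM and 8.19, 6.12 and 7.14 CPM. The AKR/J mean was highest on d12 and the Cav1-null mean on d17, with no day comparison called in any strain. AKR/J exceeded C57BL/6J on d12 by 1.07 ± 0.29 (adjusted p = 0.0269), and every d12 library of AKR/J was above every d12 library of C57BL/6J. That call was lost without AKR/J d12 replicate 1, AKR/J d12 replicate 3 or any of the 3 C57BL/6J d12 libraries. With AKR/J d12 replicates 1 and 3 both out, those of the highest erythroid sums, the difference was 0.77 ± 0.35 (adjusted p = 0.29), with 1 AKR/J d12 library left. On d15 Cav1-null exceeded C57BL/6J by 0.94 ± 0.23 (adjusted p = 0.00546), a call that held with any library left out. The early change differed between AKR/J and Cav1-null by -1.18 ± 0.35 (adjusted p = 0.0412). This held without AKR/J d12 replicate 2 or Cav1-null d12 replicate 3 and was lost without any of the other 10 libraries.

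Bnip3 (ENSMUSG00000078566, chr7:138490690-138511253, minus strand), a receptor on the outer mitochondrial membrane for mitophagy, was the member called most often among the HIF targets outside glycolysis, in 7 of 15 day and strain comparisons. Bnip3 in AKR/J libraries measured 41.2, 25.4 and 31.2 CPM on d12, 15.5, 19.6 and 18.7 CPM on d15 and 20.2, 23.6 and 25.2 CPM on d17. C57BL/6J libraries measured 11.9, 10.9 and 18.3 CPM, 11.97, 13.8 and 15.2 CPM and 19.4, 24.7 and 25.2 CPM. Cav1-null libraries measured 14.2, 18.5 and 22.5 CPM, 20.03, 20.4 and 18.8 CPM and 27.3, 33.6 and 25.97 CPM. All 3 AKR/J d12 libraries were above all 3 of C57BL/6J d12. In each strain the d17 libraries were above the d15 libraries, though the late difference in AKR/J was not called. In the early phase Bnip3 fell in AKR/J by 0.90 ± 0.22 (adjusted p = 0.0199), lost without AKR/J d12 replicate 1, d15 replicate 1 or d15 replicate 3. Between d15 and d17 it rose in C57BL/6J by 0.80 ± 0.17 (adjusted p = 0.026), lost without any of the d15 libraries or d17 replicate 3, and in Cav1-null by 0.58 ± 0.11 (adjusted p = 0.00124), which held without any single library.

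On d12 Bnip3 in AKR/J exceeded C57BL/6J by 1.37 ± 0.29 (adjusted p = 0.0139) and Cav1-null by 0.86 ± 0.26 (adjusted p = 0.05), whose adjusted p was under 0.05 before rounding. The first was lost without AKR/J d12 replicate 1, C57BL/6J d12 replicate 1 or C57BL/6J d12 replicate 2, and the second without AKR/J d12 replicate 1 or 3 or Cav1-null d12 replicate 1 or 2. The erythroid sum on d12 was 34389 to 201800 CPM for AKR/J, 1930 to 4761 CPM for C57BL/6J and 4005 to 5469 CPM for Cav1-null, with 12 of 14 erythroid genes called higher in AKR/J against each strain, and its part in the Bnip3 result was not tested. Leaving out the 2 AKR/J d12 libraries of the highest erythroid sums kept 1 AKR/J d12 library, whose spread then had to be taken from the other groups. Bnip3 was then 0.95 ± 0.36 above C57BL/6J (adjusted p = 0.251) and 0.43 ± 0.31 above Cav1-null (adjusted p = 0.438), and its early difference in AKR/J was -0.48 ± 0.21 (adjusted p = 0.203). C57BL/6J was the lowest strain again on d15, exceeded by AKR/J by 0.44 ± 0.15 (adjusted p = 0.0495) and by Cav1-null by 0.57 ± 0.11 (adjusted p = 0.00139). The former was lost without AKR/J d15 replicate 2 or 3 or any C57BL/6J d15 library. The early change of AKR/J differed from that of Cav1-null by -1.04 ± 0.29 (adjusted p = 0.0339), lost without any of 9 of the 12 libraries (AKR/J d12 replicates 1 and 3, AKR/J d15 replicates 1 and 3, Cav1-null d12 replicates 1 and 2 and the 3 Cav1-null d15 libraries).

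Pdk1 (ENSMUSG00000006494, chr2:71703488-71734202, plus strand) encodes a kinase that switches off pyruvate dehydrogenase and so keeps pyruvate out of the citrate cycle. Pdk1 across AKR/J libraries read 29.8, 39.1 and 20.7 CPM on d12, 38.4, 47.2 and 34.9 CPM on d15 and 42, 40.5 and 44.3 CPM on d17. C57BL/6J libraries read 31.6, 30.7 and 42.3 CPM, 39.4, 38.1 and 34.2 CPM and 52.98, 57.3 and 54.9 CPM. Cav1-null libraries read 33.5, 33.3 and 48.2 CPM, 39.99, 40.7 and 42.1 CPM and 67.95, 89.7 and 59.5 CPM. On d17 the strains were ordered without overlap, Cav1-null above C57BL/6J above AKR/J, whereas on d12 they overlapped. The late rise was 0.85 ± 0.12 (adjusted p = 0.000174) in Cav1-null and 0.61 ± 0.12 (adjusted p = 0.0202) in C57BL/6J, and the difference in AKR/J was 0.11 ± 0.14 (adjusted p = 0.608). On d17 AKR/J was lower than Cav1-null by 0.80 ± 0.12 (adjusted p = 0.00135), while the differences of AKR/J and Cav1-null from C57BL/6J, -0.37 and 0.44, did not pass (adjusted p = 0.178 and 0.575). The Cav1-null calls held with any library left out, and the C57BL/6J rise was lost without any of its d15 libraries or d17 replicate 3.

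Hk2 (ENSMUSG00000000628, chr6:82699740-82751469, minus strand), the inducible hexokinase that starts glycolysis, fell in at least 1 phase in each strain. Hk2 for AKR/J was 18.8, 17.6 and 11.5 CPM on d12, 6.56, 8.91 and 11.1 CPM on d15 and 2.78, 2.42 and 2.22 CPM on d17. In C57BL/6J it was 15.6, 30.1 and 24.5 CPM, 17.7, 14.4 and 14.1 CPM and 6.47, 3.296 and 4.94 CPM. In Cav1-null it was 8.94, 10.05 and 8.06 CPM, 4.85, 5.12 and 2.94 CPM and 2.45, 4.88 and 3.24 CPM. The groups of successive days did not overlap in AKR/J, and in Cav1-null d15 and d17 overlapped. The late fall was 1.80 ± 0.23 (adjusted p = 0.00186) in AKR/J and 1.62 ± 0.25 (adjusted p = 0.0107) in C57BL/6J, and the late difference in Cav1-null was -0.26 ± 0.26 (adjusted p = 0.51). The early fall was 1.04 ± 0.23 (adjusted p = 0.0134) in Cav1-null and 0.89 ± 0.28 (adjusted p = 0.0468) in AKR/J, and the early difference in C57BL/6J, -0.64 ± 0.24 (adjusted p = 0.103), did not pass. Of these calls the late fall in AKR/J and the early fall in Cav1-null held without any single library. The C57BL/6J late fall was lost without C57BL/6J d15 replicate 1, d15 replicate 2 or d17 replicate 3, and the AKR/J early fall without any AKR/J library of d12 or d15 except d12 replicate 3. With AKR/J d12 replicates 1 and 3 both out, which leaves 1 library there, the early difference of AKR/J was -0.97 ± 0.32 (adjusted p = 0.109). Proliferation markers fell alongside, with 9 or 10 of 10 called lower in each of the 6 day comparisons, and their part in the fall of Hk2 was not tested.

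On d15 Hk2 was highest in C57BL/6J, and Cav1-null was lower by 1.80 ± 0.20 (adjusted p = 2.97e-05) and AKR/J by 0.75 ± 0.20 (adjusted p = 0.0211). The Cav1-null difference held without any library, and the AKR/J difference was lost without AKR/J d15 replicate 1 or C57BL/6J d15 replicate 1 or 2. AKR/J exceeded Cav1-null by 0.87 ± 0.25 (adjusted p = 0.0431) on d12 and by 1.01 ± 0.27 (adjusted p = 0.0318) on d15. The d12 call was lost without AKR/J d12 replicate 1 or any Cav1-null d12 library, and the d15 call without AKR/J d15 replicate 3 or any Cav1-null d15 library. On d12 Cav1-null was at 9.01 ± 0.996 CPM and C57BL/6J at 23.4 ± 7.29 CPM (mean ± SD of 3), a difference of -1.36 ± 0.25 (adjusted p = 0.105) that did not pass.

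Pfkl (ENSMUSG00000020277, chr10:77818084-77845922, minus strand) encodes the liver-type phosphofructokinase subunit of the committed step. Pfkl values of AKR/J were 47.5, 68.4 and 41.01 CPM on d12, 68.1, 60.3 and 87.6 CPM on d15 and 60.7, 56.9 and 62.5 CPM on d17. Those of C57BL/6J were 91.6, 131 and 75.1 CPM, 116, 127 and 124 CPM and 138, 66.8 and 91.97 CPM. Those of Cav1-null were 61.5, 58.5 and 61.4 CPM, 59.4, 54.4 and 46.2 CPM and 61.3, 91.8 and 71.2 CPM. C57BL/6J stood above the other strains on d15 without overlap, and on d17 its replicate 2 fell within the range of Cav1-null. On d15 Pfkl was lower than in C57BL/6J by 1.16 ± 0.08 (adjusted p = 1e-06) in Cav1-null and by 0.72 ± 0.11 (adjusted p = 0.00172) in AKR/J, and both calls held without any library. From d15 to d17 Pfkl rose in Cav1-null by 0.52 ± 0.12 (adjusted p = 0.00691), lost in the single model of 27 libraries alone among the settings run.

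Aldoa (ENSMUSG00000030695, chr7:126393822-126399923, minus strand), aldolase A, splits fructose bisphosphate into triose phosphates. The gene has near-identical processed copies in the genome and how reads with several placements were counted is not given, so its level is uncertain, as are those of Pgk1 and Ldha for the same reason. Aldoa of AKR/J brains was 166, 122 and 127 CPM on d12, 119, 137 and 156 CPM on d15 and 130.4, 130.0 and 137 CPM on d17. C57BL/6J brains had 149, 183 and 149.6 CPM, 189.8, 178 and 211 CPM and 261, 134 and 204 CPM. Cav1-null brains had 117, 124 and 139.9 CPM, 108, 105 and 90.7 CPM and 148, 189 and 153 CPM. Cav1-null dipped on d15 below its own d12 and d17 libraries, while C57BL/6J spread widely on d17. The late rise in Cav1-null was 0.72 ± 0.09 (adjusted p = 9.57e-05). On d15 Cav1-null was below C57BL/6J by 0.89 ± 0.08 (adjusted p = 5.47e-06). Both held without any single library. On the same day AKR/J was below C57BL/6J by 0.45 ± 0.11 (adjusted p = 0.014), lost without AKR/J d15 replicate 1 or C57BL/6J d15 replicate 3, and above Cav1-null by 0.41 ± 0.11 (adjusted p = 0.0304), lost without AKR/J d15 replicate 3 or any Cav1-null d15 library. On d17 AKR/J was below Cav1-null by 0.32 ± 0.09 (adjusted p = 0.0357), lost without any of the 6 libraries but Cav1-null d17 replicate 1. The late change of AKR/J differed from that of Cav1-null by -0.74 ± 0.15 (adjusted p = 0.0286), lost without AKR/J d17 replicate 2 or 3, any Cav1-null d15 library or Cav1-null d17 replicate 2 or 3. The second Aldoa row, ENSMUSG00000114515, which the annotation names Gm57854 and which overlaps Aldoa on the same strand, held 75 to 179 reads per library (2.52 to 6.09 CPM) and was called in no comparison.

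Pgk1 (ENSMUSG00000062070, chrX:105230706-105247305, plus strand), phosphoglycerate kinase, makes the first ATP of the pathway. Pgk1 within AKR/J came to 157, 133 and 147 CPM on d12, 129, 128 and 142 CPM on d15 and 94.7, 78 and 79.2 CPM on d17. Within C57BL/6J it came to 116, 134 and 181 CPM, 104, 99.5 and 104 CPM and 101, 76.04 and 113 CPM. Within Cav1-null it came to 167, 192 and 145 CPM, 90.9, 81.4 and 73.9 CPM and 77.6, 109.9 and 88.1 CPM. The gene dropped between d12 and d15 in Cav1-null and between d15 and d17 in AKR/J, in each case without overlap of the groups. In C57BL/6J the d15 libraries also lay below the d12 libraries without overlap, but that difference was not called. The drop was 1.01 ± 0.11 (adjusted p = 0.000586) in Cav1-null in the early phase and 0.63 ± 0.09 (adjusted p = 0.00231) in AKR/J in the late phase, and both held without any single library. AKR/J exceeded Cav1-null on d15 by 0.66 ± 0.08 (adjusted p = 0.00146), and C57BL/6J by 0.42 ± 0.06 (adjusted p = 0.001). Cav1-null was lower than C57BL/6J on d15 by 0.28 ± 0.07 (adjusted p = 0.00685). In the single model of 27 libraries both differences from C57BL/6J were lost, and with library sizes in place of TMM that of Cav1-null.

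The change of Pgk1 differed between AKR/J and Cav1-null in both phases. Its early change differed by 0.82 ± 0.18 (adjusted p = 0.0131), called in all 19 settings run, and its late change by -0.83 ± 0.15 (adjusted p = 0.0242), which was lost without AKR/J d17 replicate 2 or 3, Cav1-null d15 replicate 2 or 3 or Cav1-null d17 replicate 2 or 3. The early change in AKR/J was -0.16 ± 0.16 (adjusted p = 0.469) and the late change in Cav1-null was 0.19 ± 0.11 (adjusted p = 0.219), neither of which passed.

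Ldha (ENSMUSG00000063229, chr7:46490899-46505061, plus strand), the muscle-type lactate dehydrogenase subunit, reduces pyruvate to lactate. Ldha among AKR/J libraries was 352, 254 and 277 CPM on d12, 186, 201 and 213 CPM on d15 and 165, 137 and 145 CPM on d17. Among C57BL/6J libraries it was 191, 244 and 304 CPM, 204, 185 and 208 CPM and 259, 137 and 234 CPM. Among Cav1-null libraries it was 224, 261 and 237 CPM, 142, 134 and 118 CPM and 162, 217 and 178 CPM. AKR/J libraries were lower on each later day without overlap, and Cav1-null was lowest on d15, also without overlap. The early fall in Cav1-null was 0.85 ± 0.10 (adjusted p = 0.000726) and its late rise 0.53 ± 0.10 (adjusted p = 0.00139), and both held without any single library. In AKR/J the late fall was 0.39 ± 0.09 (adjusted p = 0.0182), lost without AKR/J d17 replicate 2 or 3, and the early difference -0.59 ± 0.19 (adjusted p = 0.0519) just missed. On d15 Cav1-null was below C57BL/6J by 0.56 ± 0.08 (adjusted p = 9.74e-05) and AKR/J above Cav1-null by 0.57 ± 0.09 (adjusted p = 0.00355), both held without any library. On d17 AKR/J was below Cav1-null by 0.34 ± 0.10 (adjusted p = 0.0415), lost without AKR/J d17 replicate 2 or 3 or Cav1-null d17 replicate 2 or 3. The late change of AKR/J differed from that of Cav1-null by -0.93 ± 0.14 (adjusted p = 0.0154), lost without AKR/J d17 replicate 2 or 3 or Cav1-null d15 replicate 2 or 3.

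Within C57BL/6J d17, Egln3, Hk2, Pfkl, Aldoa, Pgk1 and Ldha were lowest and Vegfa, Ankrd37 and Pdk1 highest in replicate 2. That library also had the lowest sums of brain markers, 3876 CPM, and of vessel markers, 85.1 CPM against 125.7 and 225.7 CPM in the others. Without it 5 members were called between AKR/J and C57BL/6J and 2 between Cav1-null and C57BL/6J on d17, and its part in those comparisons was not tested. The share of all genes called in those 2 fits is not given here, so these counts have no background to be set against.

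The members are 1 isozyme each of small families, and their weight within the family is given as the share of the summed CPM per kb. Hk2 made up 32.4% of Hk1 and Hk2 in AKR/J on d12, 8.06% on d15 and 2.0% on d17. The share went from 18.1% through 4.55% to 1.97% in C57BL/6J and from 12.0% through 4.13% to 2.29% in Cav1-null. The range over libraries on d12, from 11.3% to 39.3%, did not overlap that on d17, from 1.32% to 2.76%. Hk1, the hexokinase of the adult brain, meanwhile went from 4.29 ± 0.59 to 15.6 ± 2.29 CPM per kb in AKR/J between d12 and d17 (mean ± SD, n = 3), and its early rise there was 1.59 ± 0.25, adjusted p = 0.0037.

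Pfkl likewise lost weight against Pfkp, the platelet-type subunit that is abundant in brain. Its share of the 3 subunits went from 30.0% on d12 to 4.62% on d17 for AKR/J, from 26.9% to 7.62% for C57BL/6J and from 16.8% to 4.26% in Cav1-null, while Pfkp went from 21.4 to 288 CPM per kb, from 44.8 to 297 CPM per kb and from 60.4 to 388 CPM per kb. Pfkp rose in all 6 day comparisons, for example by 1.46 ± 0.12, adjusted p = 0.000659 in AKR/J from d15 to d17 and by 1.76 ± 0.21, adjusted p = 0.000841 in the early phase of Cav1-null. The Pfkl level itself was called lower in no day comparison.

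Aldoa remained the main aldolase, with 98.6% of Aldoa and Aldoc in AKR/J on d12 and 78.2% to 89.5% in the other groups. Aldoc, the brain-type aldolase of astrocytes, was at 1.33 CPM per kb in AKR/J d12 against 12.1 to 36.5 CPM per kb elsewhere, and rose there in the early phase by 3.61 ± 0.34, adjusted p = 0.000922. Ldha held 52.7% to 64.2% of Ldha and Ldhb in all groups but AKR/J d12, where it held 75.3%. These AKR/J d12 values come from the libraries with high erythroid and low brain marker sums, whose part in them was not tested. Replicate 2, with the lowest erythroid sum there, had 98.2% for Aldoa, 74.8% for Ldha and 34.6% for Hk2. Without the other 2, the early rises were 3.52 ± 0.42 for Aldoc (adjusted p = 0.0132) and 1.65 ± 0.37 for Hk1 (adjusted p = 0.0487). Pdk1 rose in weight among the 4 pyruvate dehydrogenase kinases from d12 to d17, from 28.8% to 45.1% for AKR/J, from 26.5% to 45.7% for C57BL/6J and from 34.6% to 57.9% in Cav1-null. Egln3 was 4.36% to 7.60% of the 3 prolyl hydroxylases and Bnip3 7.25% to 13.5% of Bnip3 and Bnip3l in the 9 groups, so most of the level of each family came from the relatives.

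**Figure D3:**
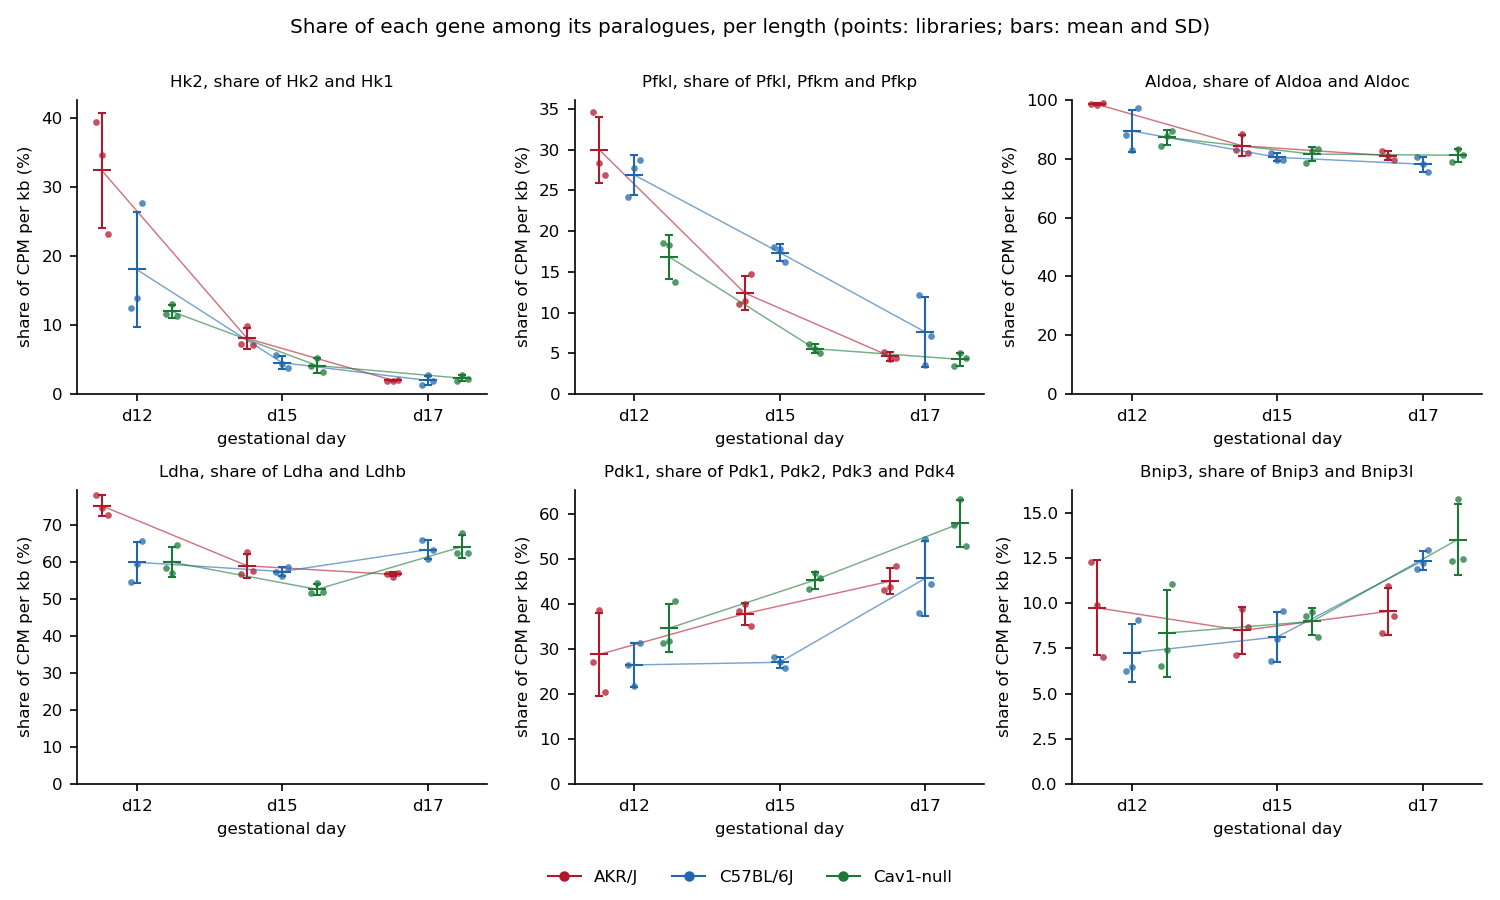
Share (%) of Hk2, Pfkl, Aldoa, Ldha, Pdk1 and Bnip3 in the summed level per kb of their families, by strain and gestational day; points are libraries, bars the mean and SD of 3, and lines join the means. The Hk2 and Pfkl shares fall with day in each strain to 1.97% to 2.29% and 4.26% to 7.62% on d17, and the Pdk1 share rises.

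The rest of the pathway was read through lists of genes named for their roles, each to be set beside the share of all genes called in the same comparison. Those shares were 28.9% (early) and 22.1% (late) for AKR/J, 14.9% and 13% for C57BL/6J, and 23.4% and 27.3% for Cav1-null. Against C57BL/6J they were 28.6% on d12 and 41.1% on d15 for AKR/J and 0% and 58.6% on those days for Cav1-null, and on d17 they were 0.742% and 0.0491%. Of 22 other genes of glycolysis (enzymes, the regulatory Pfkfb and pyruvate dehydrogenase kinases, and glucose or lactate carriers), 12 rose and none fell in the late phase of Cav1-null, the largest rise being Pdk4, a kinase that holds pyruvate back from the citrate cycle, at 1.08 ± 0.27, adjusted p = 0.0101. Their median was 0.37 against -0.0037 for all genes. AKR/J had 7 rises and 4 falls in its late phase (Pfkp led the rises, the lactate exporter Slc16a3 the falls at -1.24 ± 0.27, adjusted p = 0.0134), and C57BL/6J had 2 rises and no fall. In the early phase 9 rose and 5 fell in AKR/J, 3 rose and 1 fell in C57BL/6J (Hk1 at 1.42 ± 0.34, adjusted p = 0.0373 and Pdk3 at -0.60 ± 0.15, adjusted p = 0.0413), and 7 rose and 10 fell in Cav1-null, where Slc16a3 fell most at -1.33 ± 0.28, adjusted p = 0.0106. The early and the d12 counts of AKR/J rest on d12 libraries with 34389 to 201800 CPM of erythroid transcripts, whose part was not tested. Against C57BL/6J on d15, 18 were lower and 2 higher in Cav1-null and 12 lower and 1 higher in AKR/J, where 58.6% and 41.1% of all genes were called. The glucose carrier Slc2a1, which sits on barrier endothelium and glia, led the first at -2.02 ± 0.08, adjusted p = 3.32e-08 and Hk1 the second at -1.62 ± 0.20, adjusted p = 0.000838, with list medians of -0.60 and -0.33. On d12 AKR/J was lower in 10 of the 22, led by Aldoc at -3.22 ± 0.68, adjusted p = 0.0144, and Cav1-null in none. On d17 no gene of the list was called against C57BL/6J in either strain, where under 1% of all genes were called.

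Of 10 oxygen-sensing genes (HIF subunits, their hydroxylases and cofactors) 8 were lower and none higher in Cav1-null than in C57BL/6J on d15 (58.6% of all genes called), led by the endothelial HIF Epas1 at -2.77 ± 0.15, adjusted p = 1.3e-07. AKR/J was lower in 4 on d15 (41.1% of all genes called), again led by Epas1 at -2.06 ± 0.20, adjusted p = 0.000373, and in 5 on d12 (28.6% of all genes called), led by Arnt2 at -1.44 ± 0.33, adjusted p = 0.0174. In the late phase of Cav1-null 1 rose, Hif3a at 0.83 ± 0.16, adjusted p = 0.0015, and 1 fell, Cited2 at -0.42 ± 0.08, adjusted p = 0.00216, and the other 8, among them Hif1a, Epas1 and the hydroxylases Egln1, Egln2 and Hif1an, did not pass. The hydroxylase Egln3, a member, rose there as given above. Of 10 other genes of the VEGF family and its receptors, 7 were lower in Cav1-null than in C57BL/6J on d15 and 6 in AKR/J, beside the same 58.6% and 41.1% of all genes, with the lymphatic receptor Flt4 leading both at -2.38 ± 0.16, adjusted p = 7.27e-07 and -1.65 ± 0.24, adjusted p = 0.00159. When Vegfa rose in late Cav1-null brains, its decoy receptor Flt1 rose by 1.28 ± 0.16, adjusted p = 8.44e-05 and Vegfb rose too. The main signalling receptor Kdr fell in AKR/J from d15 to d17 (-0.80 ± 0.17, adjusted p = 0.0144) where Vegfb rose (0.44 ± 0.08, adjusted p = 0.0089). Vessel markers moved with Kdr, with 3 of 8 called lower and sums of 110 to 136 CPM on d15 and 67.7 to 91.9 CPM on d17 for AKR/J, and their part in its fall was not tested. The co-receptor Nrp1 rose in the early phase of all 3 strains, by 1.51 for AKR/J, 1.37 for C57BL/6J and 0.72 for Cav1-null.

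Other HIF targets moved in both directions. Of 21 tested, 6 rose and 3 fell in the late phase of Cav1-null (Stc2 at 0.90 ± 0.30, adjusted p = 0.0368 and Hilpda at -0.48 ± 0.13, adjusted p = 0.0141 were the largest), and 6 were higher and 9 lower than in C57BL/6J on d15, with 58.6% of all genes called. Fam162a, a mitochondrial HIF target, was among the higher ones at 0.96 ± 0.08, adjusted p = 2.32e-06, and Car12, a carbonic anhydrase, the lowest at -1.31 ± 0.29, adjusted p = 0.0031. In AKR/J Fam162a was higher than in C57BL/6J on d12 by 2.23 ± 0.37, adjusted p = 0.0115 and fell in the early phase (-2.02 ± 0.36, adjusted p = 0.0056), as Bnip3 did, while the stress gene Ddit4 was lower on d12 at -1.40 ± 0.28, adjusted p = 0.0128. These comparisons hold the AKR/J d12 libraries with 34389 to 201800 CPM of erythroid transcripts, and the part of those transcripts was not tested. With replicates 1 and 3 of that group out, which leaves 1 library, Fam162a stood 1.15 ± 0.26 above C57BL/6J (adjusted p = 0.238), its early fall was 0.94 ± 0.16 (adjusted p = 0.0266), and Ddit4 was at -1.05 ± 0.34 (adjusted p = 0.238). In that setting no gene of any pathway list was called by edgeR against C57BL/6J on d12, where 9 genes were called in all. Of 16 genes of mitochondrial pyruvate use and the citrate cycle, 5 rose and none fell in the late phase of Cav1-null (Pdha1 led at 0.38 ± 0.09, adjusted p = 0.00608). On d15 6 were higher and 6 lower in Cav1-null than in C57BL/6J, from the pyruvate carrier Mpc1 at 1.03 ± 0.11, adjusted p = 1.41e-05 to Ogdh at -1.42 ± 0.07, adjusted p = 6.34e-08, and the same counts stood between AKR/J and C57BL/6J.

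Markers of cell types moved in the d15 comparisons against C57BL/6J, to be set beside 58.6% of all genes called for Cav1-null and 41.1% for AKR/J. The counts of connective tissue markers lower in Cav1-null and of astrocyte markers lower in AKR/J were near those shares. Erythroid sums went the other way, at 2913 to 3610 CPM in Cav1-null and 2040 to 3149 CPM in AKR/J against 813 to 1071 CPM in C57BL/6J. All 8 brain markers were lower in Cav1-null, with sums of 4478 to 4551 CPM against 6729 to 7471 CPM in C57BL/6J. Of 8 vessel markers 6 were lower and 1 higher (76.3 to 94.1 against 175 to 251 CPM), of 8 connective tissue markers tested 5 were lower (127 to 222 against 447 to 5659 CPM), of 8 astrocyte markers 6 were lower and 1 higher (295 to 312 against 686 to 752 CPM) and of 10 proliferation markers 6 were lower and 2 higher (648 to 680 against 873 to 1091 CPM). Astrocyte markers rose in 5 of 8 and fell in 1 in late Cav1-null brains, while 0 of 8 vessel markers were called, with sums of 76.3 to 94.1 CPM on d15 and 78.2 to 88.2 CPM on d17. In that phase 27.3% of all genes were called. Erythroid sums of Cav1-null were 2913 to 3610 CPM on d15 and 566 to 2460 CPM on d17, without overlap. AKR/J on d15 was below C57BL/6J as well, in 6 of 8 brain markers (3458 to 5429 against 6729 to 7471 CPM), 6 of 8 vessel markers (110 to 136 against 175 to 251 CPM) and 4 of 8 astrocyte markers (423 to 588 against 686 to 752 CPM), with none of them higher and no overlap of the sums. The part of these markers in the values of the members and of the lists was not tested. Of 11 skeletal muscle markers tested, 4 were lower in Cav1-null on d15 and 2 fell in its late phase.

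Reads across splice junctions gave a second readout, from a separate table of 55670 distinct junctions, of which 31 belong to members, 1 of them to the second Aldoa row, and 30 of these are annotated. The table lists no junction of Egln3. It leaves out junctions that the authors filtered for multiply placed reads or short overhangs, so a 0 in it can stand for removed reads. At 6 sites in 5 members, 2 or more junctions shared a donor or an acceptor with at least 50 reads on the second junction. With 3 libraries a group the exact permutation test cannot go below p = 0.1. Over 90 tests (6 sites by 15 comparisons) 10 reached that floor and 11 had groups that did not overlap. Where no share changes, a fraction of tests up to about the floor itself reaches it, so 10 of 90 is near what chance gives. The same counts over all junction sites are not given here, so these counts do not show splicing differences of the members. Shares of each library are therefore described by day.

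Vegfa is the case with a known product behind each junction. Exons 6 and 7 encode the stretches that hold the protein to heparan sulphate and neuropilin, and the transcript that joins exon 5 directly to exon 8 lacks both and makes the freely diffusing form. The exon 5 donor, the skipped exons and the exon 8 acceptor are printed because the shares below count the choices among them, with exon bases in capitals and intron bases in lower case, 5′ to 3′ on the minus strand.
Exon 5 donor, chr17:46334976-46335005: AACAAAGCCAGAAAAgtaagtggccacgtg
Exon 6 (72 bases), chr17:46333193-46333284: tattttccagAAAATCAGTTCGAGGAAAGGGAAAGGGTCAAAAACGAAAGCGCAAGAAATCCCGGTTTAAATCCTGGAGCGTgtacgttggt
Exon 7 (132 bases), chr17:46331907-46332058: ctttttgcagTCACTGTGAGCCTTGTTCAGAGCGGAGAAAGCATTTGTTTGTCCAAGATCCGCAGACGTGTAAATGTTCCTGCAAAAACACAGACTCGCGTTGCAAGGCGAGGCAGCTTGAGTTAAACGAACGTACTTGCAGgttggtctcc
Exon 8 acceptor, chr17:46329791-46329820: tgccatttcccatagATGTGACAAGCCAAG
The junction from exon 5 to exon 8 had 1438 reads and that from exon 5 to exon 7 had 3688 reads over the 27 libraries. No junction from exon 5 to exon 6 is listed, so the shares count these 2 junctions and not all choices at the exon 5 donor. The share of the 5-to-8 junction was 40.4, 30.9 and 35.5% on d12, 25, 37.6 and 29.8% on d15 and 24.1, 22.6 and 28.3% on d17 in AKR/J. C57BL/6J gave 39.6, 23.5 and 35.5%, 28.02, 29.1 and 33.8% and 27.9, 19.7 and 29.9%. Cav1-null gave 33.7, 35.9 and 35.3%, 33.8, 23.1 and 22.6% and 23.7, 0 and 26.6%. The share was lower on d17 than on d12 in the mean of each strain, 35.6% against 25.0% for AKR/J, 32.8% against 25.8% for C57BL/6J and 35.0% against 16.7% in Cav1-null. The 0 of Cav1-null d17 replicate 2 stands beside 228 reads on the 5-to-7 junction in that library, and without it the Cav1-null d17 mean was 25.1% (n = 2).

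Over the 3 strains together, d17 and d12 are set side by side as a description with no test, since the contrast was chosen after the shares had been seen. The share of the 5-to-8 junction of Vegfa was 11.9 points lower on d17 (34.5% against 22.5%), and without the library at 0 the mean difference was -9.16 points. This site sets the 5-to-8 junction against the 5-to-7 junction, both without exon 6. The share of exon 6 inclusion at the exon 7 acceptor, which ranged from 0.901% to 9.63% over the libraries, was 3.41 points higher (3.65% against 7.06%). That site sets the 6-to-7 junction against the 5-to-7 junction, both with exon 7, so the sites share the 5-to-7 reads and each follows 1 exon. The 6-to-7 junction had only 1 to 21 reads per library. Its share on d12 and d17 overlapped for AKR/J (1.24% to 5.81% and 2% to 9.38%) and for Cav1-null (3.45% to 8.23% and 4.72% to 9.5%). For C57BL/6J the days did not overlap (0.901% to 5.34% and 5.98% to 9.63%). At the other members Pfkl had a 9.71-point higher share of its second junction at the donor at 77833357 on chromosome 10 (6.42% against 16.1%), and Aldoa a share at its acceptor at 126396949 on chromosome 7 that was 29.3% on d12 and 10.3% on d17. The sites of Aldoa and Pfkl held few reads, 9 to 37 and 14 to 230 per library, so they are given by their ranges. The Aldoa share ran from 22.7% to 72.7% on d12 and from 0 to 13.6% on d17 for AKR/J, and from 30.8% to 38.1% and from 3.85% to 17.9% for Cav1-null, but for C57BL/6J the days overlapped, at 0 to 30% and 8.33% to 24.1%. The C57BL/6J mean was higher on d17, 15.6% against 12.8% on d12. The 72.7% was 8 of 11 reads in AKR/J d12 replicate 3. The Pfkl share ran from 4.05% to 8.14% on d12 and from 13.3% to 25.7% on d17 for Cav1-null, while the days overlapped for AKR/J (0 to 21.4% and 16.4% to 25%) and for C57BL/6J (0 to 3.08% and 0 to 20.5%). The 20.5% was C57BL/6J d17 replicate 2, and without it the mean there was 1.52%, below the 1.99% of d12. The Aldoa share was 0 in 5 of 27 libraries and the Pfkl share in 4. The Ldha share cannot be read by day, since it was 0 in 8 libraries and 100% in 8 others.

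**Figure D4:**
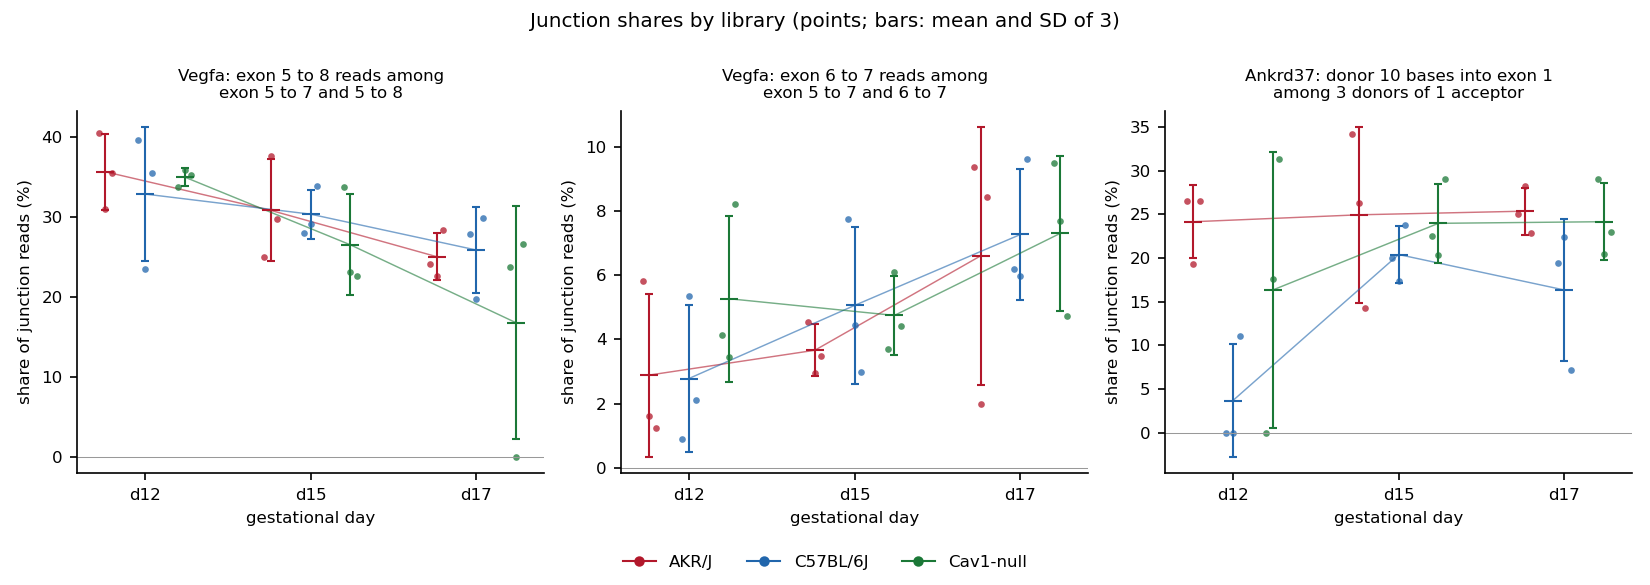
Share (%) of junction reads at 2 Vegfa sites and 1 Ankrd37 site, by strain and gestational day; points are libraries, bars the mean and SD of 3, and lines join the means. The Vegfa exon 5-to-8 share falls from a mean of 34.5% on d12 to 22.5% on d17, with 1 Cav1-null d17 library at 0.

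In Ankrd37, 3 donors joined 1 acceptor, and the donor with no annotation carried 241 reads, beside 762 and 137 reads on the annotated ones. It lies 10 bases into the 252-base first exon of the canonical transcript, in the exon part of the upstream window that is not printed above. The 3 donors and the acceptor show the GT and AG at the intron ends.
Donor without annotation, chr8:46452881-46452910: CATGTCAGTGTTTGGgtacgtgaggccgca
Annotated donor, 137 reads, chr8:46452673-46452702: TGTCATCTGCTTTAGgtgggcgatgctgtt
Annotated donor, 762 reads, chr8:46452639-46452668: AGTTGCAACTTGGAGgtgagactctcgccc
Shared acceptor, chr8:46452426-46452455: gttcttttcctgcagGAGGATGACCTTAAG
The unannotated donor had 26.6, 19.4 and 26.5% of the reads at the acceptor in AKR/J on d12, 34.2, 26.3 and 14.3% on d15 and 25, 28.2 and 22.9% on d17. In C57BL/6J its share was 0, 0 and 11.1%, 20, 17.4 and 23.8% and 19.4, 22.4 and 7.14%. In Cav1-null the share was 0, 17.6 and 31.4%, 22.5, 20.4 and 29.03% and 29.03, 20.5 and 22.9%. It was thus used in 24 of 27 libraries, and the 3 libraries at 0 were all of d12. The mean over strains was 7.22 points higher on d17 than on d12, a difference that takes in the d12 libraries at 0. The d12 libraries above 0 ran from 11.1% to 31.4%, and those of d17 from 7.14% to 29.03%. The site held 15 to 78 reads per library, so a 0 may stand for few or removed reads.

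Across the 27 libraries, which share strain and day, Pgk1 and Ldha ran together most closely among the members (Pearson's r = 0.854 on log2 CPM), then Pfkl and Aldoa (0.805), Ankrd37 and Bnip3 (0.787) and Egln3 and Pfkl (0.775), whereas Ankrd37 and Pfkl ran opposite (-0.629). The genes most like Bnip3 among 10895 ranked were 1500009L16Rik (0.908), Acer3 (0.904) and Hprt (0.897). Those most like Pgk1 were Galnt1 (0.918), Zmpste24 (0.906) and Hsp90b1 (0.906). For Vegfa they were Sirt3 (0.802), Malt1 (0.798) and Impact (0.788), and for Ankrd37 they were Gpr22 (0.872), Vps29 (0.870) and Ndufaf5 (0.859). These correlations describe the libraries and carry no p-value.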

How the data were processed

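Total RNA from whole fetal brains was selected for poly(A) and sequenced as 27 libraries. Per the labels, the authors trimmed reads with cutadapt and fastp and aligned them with STAR to GRCm39, and deposited counts of reads per gene (Ensembl release 110, no normalization) and counts of reads per splice junction, from which they left out junctions with multiply placed reads, short overhangs or few reads. Reads of AKR/J were thus set against a C57BL/6J genome. The counting tool and its handling of strand and of multiply placed reads are not given in the sources used here. All columns were matched to samples, and the lowest mean chi-square per gene between replicates was 6.63, so none was a repeat.

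The 10 genes and the gene lists were chosen with earlier results of these data known. Gene counts were tested with edgeR 4.0.16 in R 4.3.3 (filterByExpr, TMM, glmQLFit and glmQLFTest) on the 6 libraries of each of 15 comparisons and on 12 libraries for each of 6 interactions, with Benjamini-Hochberg adjustment over all genes tested and a call at adjusted p under 0.05. The SE is the log2 fold change divided by the square root of its F. DESeq2 1.42.0 was an alternative, and the steps were tested on simulated data. CPM per kb used the Ensembl canonical transcript (54749 of 55416 IDs had a length). Junction shares were tested with exact two-sided permutation tests (scipy 1.17.1), and figures drawn with matplotlib 3.10.9. Likeness is Pearson's r over edgeR's log2 CPM, with a prior count of 2 reads scaled to library size, among genes with a mean of at least 10 CPM.

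All 10 members are named in each part. Of each list, the counts by direction and the largest called rise and fall are named, with family relatives by level. For Vegfa, Pgk1, Bnip3 and Ankrd37, the 3 genes most like each are named. Replicate numbers, which the labels give without saying what they share, deviated together in 1 of 15 comparisons, AKR/J against C57BL/6J on d12 (correlations of 0.19, 0.419 and 0.343), so that blocked value stands beside its result. Counting error is small at this depth for most members, and the spread between libraries sets the precision.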

Additional observations from a re-analysis of the deposited data

Results flagged for a closer look

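In 6 cases the change of a gene over a phase differed between AKR/J and Cav1-null by the interaction test (edgeR's quasi-likelihood test, adjusted over all genes, 12 libraries). In the early phase the change in AKR/J minus that in Cav1-null was -1.18 ± 0.35 (SE, log2) for Ankrd37 (adjusted p = 0.0412), -1.04 ± 0.29 for Bnip3 (adjusted p = 0.0339) and 0.82 ± 0.18 for Pgk1 (adjusted p = 0.0131). With AKR/J d12 replicates 1 and 3 left out, the libraries with the highest erythroid sums, 1 AKR/J d12 library remained and was assumed to vary like the other groups. The differences were then -0.88 ± 0.40 for Ankrd37 (adjusted p = 0.213), -0.61 ± 0.30 for Bnip3 (adjusted p = 0.252) and 1.02 ± 0.17 for Pgk1 (adjusted p = 0.00806). In the late phase the difference was -0.74 ± 0.15 for Aldoa (adjusted p = 0.0286), -0.83 ± 0.15 for Pgk1 (adjusted p = 0.0242) and -0.93 ± 0.14 for Ldha (adjusted p = 0.0154). All 3 late differences were lost in the model of all 27 libraries. The phases share the d15 libraries, so the early and late values of Pgk1 are not independent.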

How the results depend on the processing

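No called fold change of a member reversed in any setting. The 51 called fold changes were recomputed 315 times under other settings, keeping the call 254 times and losing it 61 times, and 342 times with 1 library left out, keeping it 238 times and losing it 104 times. Library sizes in place of TMM shifted the all-gene median by 0.435 for AKR/J and 0.14 for C57BL/6J in the early and the late phase, by -0.4 and -0.404 for AKR/J on d12 against C57BL/6J and Cav1-null, by 0.164 and 0.181 for AKR/J and Cav1-null on d15 against C57BL/6J, and in the interactions by 0.546 and -0.213 (AKR/J with C57BL/6J, early and late), -0.104 (Cav1-null with C57BL/6J, late) and 0.443 (AKR/J with Cav1-null, early). They gave 1 call in early AKR/J and 0 for AKR/J on d12 against C57BL/6J or Cav1-null. Without a filter beyond 1 read there was 1 call in early AKR/J, 1 for Cav1-null against C57BL/6J on d12, 1 for AKR/J against Cav1-null on d12, 2 in the late interaction of Cav1-null with C57BL/6J and 7 in that of AKR/J with Cav1-null. DESeq2 gave 5 and 1 calls for early AKR/J and C57BL/6J, 1 for AKR/J against C57BL/6J on d17, 2 for Cav1-null against C57BL/6J on d12, and 1 and 7 in the late interactions of Cav1-null with C57BL/6J and AKR/J. The model of all 27 libraries gave 5, 1, 5 and 3 calls for early AKR/J, early C57BL/6J, late C57BL/6J and late Cav1-null, 4 and 3 for AKR/J against C57BL/6J on d12 and d15, 2 and 5 for Cav1-null against C57BL/6J on d12 and d15, 1 for AKR/J against Cav1-null on d17 and 0 in their late interaction. The replicate block gave 0 calls in early AKR/J, 0, 2 and 2 for AKR/J against Cav1-null on d12, d15 and d17, and 1 each in their early and late interactions, and outside AKR/J against C57BL/6J on d12 the samples share only a number. Without the 2 AKR/J d12 libraries of high erythroid sums, a setting chosen after seeing the data that leaves 1 AKR/J d12 library, assumed to vary like the other groups, 0 members were called in early AKR/J, 0 against either strain on d12 and 1 in the early interaction with Cav1-null. With 1 library left out the counts ranged from 0 to 5 (early) and 2 to 4 (late) for AKR/J, 0 to 2 and 0 to 5 for C57BL/6J, and 3 to 4 and 6 to 7 for Cav1-null. On d12, d15 and d17 they ranged from 0 to 3, 4 to 5 and 0 to 5 for AKR/J against C57BL/6J, 0 to 2, 9 to 9 and 0 to 2 for Cav1-null against C57BL/6J, and 0 to 2, 2 to 5 and 1 to 5 for AKR/J against Cav1-null. In the early and late interactions they ranged from 0 to 1 and 0 to 0 for AKR/J with C57BL/6J, 0 to 2 and 0 to 3 for Cav1-null with C57BL/6J, and 1 to 4 and 0 to 5 for AKR/J with Cav1-null. A minimum of 20 or 100 reads on the second junction left 6 or 5 splice sites. The cause of these moves was not tested.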
